A study of Mus musculus with 8 samples.

Results

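The heat shock chaperones described here are the products of 10 genes, found by symbol, regardless of case, as 1 row each among the 27179 genes measured: Hspa8, Hspa1a, Hspa1b, Hsph1, Dnajb1, Dnaja1, Hsp90ab1, Hsp90aa1, Hspd1 and Hspe1. Of these symbols, 8 stand for proteins of the cytosol and nucleus. Hspd1 and Hspe1 encode the mitochondrial chaperonin HSP60 and its lid HSP10, so that the name "cytosolic" does not cover them. Gene coordinates below are RefSeq's on GRCm38.p6. All 10 reached 1 RPKM (read counts scaled to transcript length and library size) in at least 2 of the 8 libraries, the condition that 10541 genes met. The chaperones were measured in sorted cells of Peyer's patches (PP) and lamina propria (LP) from wild-type mice and mice labelled Tcf7 knockout, and were led by Hsp90ab1 in every library. Dnaja1 and Hsp90aa1 were higher in every LP library than in any PP library, a split that 6.54% of the 10541 genes showed. Hsph1 ranged from 0.10 RPKM in wild-type PP to 64.0 RPKM in LP labelled knockout. None of the 10 passed the test in any comparison of tissue or genotype, beside 0.00949% to 4.33% of the 10541 genes.

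Heat shock chaperones hold unfolded or partly folded proteins and release them for another round of folding. HSP70 proteins do this in a cycle driven by ATP, in which J-domain proteins deliver the client and trigger hydrolysis and nucleotide exchange factors such as the HSP110 protein Hsph1 reset the cycle. HSP90 takes over clients at a later stage, among them kinases and steroid receptors, and chaperonins enclose their clients in a barrel. When unfolded protein accumulates, the transcription factor HSF1 binds heat shock elements, inverted repeats of the unit GAA, and switches on the inducible members of these families.

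The study sequenced RNA from lymphoid tissue inducer cells (LTi cells), innate lymphoid cells that induce lymphoid structures in the gut. Cells were sorted from C57BL/6 mice as lineage-negative and CD127+, without KLRG1, NK1.1 or NKp46, and positive for CCR6. They came from Peyer's patches, lymphoid follicles of the gut wall, or from the small intestinal lamina propria, the connective tissue under the epithelium. The wild-type mice were Tcf7+/+, and the mice labelled knockout were Tcf7fl/fl with a Cre that recombines floxed Tcf7, the gene of the transcription factor TCF-1, in the cells that express it. Each of the 4 groups (PP wild-type, PP knockout, LP wild-type, LP knockout) had 2 libraries, made by the Smart-seq2 method for small amounts of RNA. The labels give no age and do not say that the 2 libraries came from separate animals, so p-values measure only the spread between these libraries, which may be technical. They name no Cre for the wild-type mice.

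Tcf7 itself, the targeted gene, was listed at 243 and 85.4 RPKM in wild-type PP, beside 355 and 337 RPKM in the PP pair labelled knockout. In LP it was at 229 and 246 RPKM in the wild-type libraries and at 237 and 215 RPKM in those labelled knockout. Its gene-level value was thus not lower under the knockout label in PP and overlapped between genotypes in LP, and "labelled knockout" is used below. A gene-level value does not separate the floxed part of the gene from the rest. The LTi genes Il7r, Ccr6 and Id2 were present in every library, while Tnfsf4 of the same list of 13 was between 0.016 and 0.17 RPKM in 5 of them. The summed level of these 13 LTi markers was 6168 to 7052 RPKM in PP and 3242 to 3848 RPKM in LP, with 4 lower and 1 higher in LP by limma (median average tissue difference -0.91). Of the markers that the gate excluded, Ncr1 (NKp46) was listed at 0 in all 8, Klrb1c (NK1.1) was at 32.8 RPKM in the first wild-type PP library and 8.42 RPKM in the second PP library labelled knockout, and Klrg1 was at 10.7 RPKM in the first wild-type LP library. Genes used as markers of other cells were also detected: the summed level of 10 B and plasma cell genes was 6836 to 13457 RPKM in PP and 23994 to 38069 RPKM in LP. Igkc and Igha gave most of that sum. The summed level of 10 T cell genes was 664 to 1041 RPKM in PP and 249 to 442 RPKM in LP, most of it Trbc2, Cd4 and Trbc1. Over the 8 libraries Cd3d ran from 0.057 to 31.6 RPKM, Cd3e from 0.18 to 56.3, Cd3g from 0.27 to 111 and Trac from 0.36 to 44.0. Myeloid genes summed to 509 to 707 RPKM in PP and 274 to 347 RPKM in LP, most of it Cst3 and Fcgr3. Of the 10 genes in that list, 4 passed the filter on low values. S100a8 and S100a9 were listed at 0 in every library and Itgax was at most 0.0064 RPKM. Cd68 reached 65.2 RPKM in PP and Cd14 90.5 RPKM in LP. Stromal and endothelial genes summed to 40.6 to 161 RPKM in PP and 24.0 to 54.3 RPKM in LP, nearly all of it Pecam1. From the same list, Col1a1, Col1a2, Pdgfra, Pdpn, Cdh5 and Kdr were listed at 0 in every library. Col3a1 was at most 0.0041 RPKM. Epithelial genes summed to 212 and 150 RPKM in wild-type PP, beside 555 and 715 RPKM in the PP pair labelled knockout, and 210 to 418 RPKM in LP, and for genotype in PP 9 of 12 tested were positive with a median of 1.96, though none passed the limma test (3 at an unadjusted p under 0.05). The part of these shifts in the chaperone differences below was not tested. The share of all RPKM in mitochondrially encoded genes was 13.4% and 13.6% for PP labelled knockout and 3.06% to 5.06% for the remaining 6 libraries. In sorted bulk samples, fewer cells of a type and less RNA per cell cannot be told apart.

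Promoters are shown first, as a description. The genes were chosen as heat shock chaperones, so that heat shock elements near them are not independent of that choice. The genes counted below are also not independent of each other. Hspd1 and Hspe1 share an element, and the promoters of Hspa1a and Hspa1b are nearly identical. Promoter windows, from 250 bases before to 50 after each RefSeq start on GRCm38.p6, were available for 7 of the 10 genes (Hspa1a, Hspa1b, Hsph1, Dnaja1, Dnajb1, Hspd1, Hspe1). The letters GAANNTTC or TTCNNGAA (2 units of a heat shock element, read on both strands) were in windows of 6 of the 7 genes, all but Dnajb1, against 4587 of the 27025 genes with a window. The same motif with 1 more unit (GAANNTTC followed directly by NNGAA, or TTCNNGAA followed directly by NNTTC; 3 units, so that each match contains matches of 2 units) was in windows of Hsph1, Hspe1 and Hspd1, against 0.662% of the 27025. A match describes these letters and not a bound site. The 250 bases upstream of Hspa1a (chr17:34972157-34972406, minus strand) and of Hspa1b (chr17:34959239-34959488, minus strand) are given 5′ to 3′, with the 2-unit match in capitals.
Hspa1a: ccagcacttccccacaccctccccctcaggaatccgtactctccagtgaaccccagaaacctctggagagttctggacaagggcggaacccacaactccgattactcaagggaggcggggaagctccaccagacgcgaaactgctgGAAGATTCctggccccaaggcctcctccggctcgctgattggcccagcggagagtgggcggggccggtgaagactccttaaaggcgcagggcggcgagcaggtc
Hspa1b: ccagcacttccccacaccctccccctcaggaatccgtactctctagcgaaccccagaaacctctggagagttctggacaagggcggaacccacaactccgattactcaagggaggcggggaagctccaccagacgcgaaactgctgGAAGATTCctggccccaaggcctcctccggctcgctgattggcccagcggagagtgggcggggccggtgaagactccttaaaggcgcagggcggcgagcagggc
These neighbouring promoters are 98.8% identical. They differ at 3 of 250 positions, counted from the 5′ end of the stretch with the Hspa1a base first: C44T, T47C and T249G. None of the 3 falls in the capitals, which lie 104 to 97 bases before the start in both genes.

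The other 3 stretches are 60 bases each, with 2-unit matches, overlapping ones joined, in capitals. The Hspe1 stretch (chr1:55088038-55088097, plus strand) carries 3 overlapping matches, the Hsph1 stretch (chr5:149636337-149636396, minus strand) ends 1 base before the start at 149636336, although RefSeq's outermost bound of the gene lies further upstream, and the Dnaja1 stretch (chr4:40722318-40722377, plus strand) lies 150 to 91 bases upstream.
Hspe1: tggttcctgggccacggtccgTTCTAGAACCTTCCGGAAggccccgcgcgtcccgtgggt
Hsph1: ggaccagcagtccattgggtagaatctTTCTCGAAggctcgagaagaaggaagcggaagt
Dnaja1: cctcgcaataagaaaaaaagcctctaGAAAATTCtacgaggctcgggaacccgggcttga
The Hspe1 element is also that of Hspd1. The genes are read in opposite directions from starts at 55088148 and 55087932 on chromosome 1, 216 bases apart, and the same letters lie in the windows of both. RefSeq also gives Hspd1 a start at 55088243, beyond the element. The 3-unit match of Hsph1 is not in this stretch but past the start.

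The constitutive HSP70 gene Hspa8 (HSC70; chr9:40801276-40805202) was at 172 and 151 RPKM in wild-type PP, 125 and 120 in PP labelled knockout, 145 and 122 in LP of wild-type mice and 218 and 164 RPKM in LP labelled knockout. The libraries labelled knockout were thus the lower pair in PP and the higher pair in LP, with no overlap in either tissue. Groups of 2 failed to overlap in these directions for 14.8% of all genes in PP and 15.3% in LP. The genotype difference was -0.39 ± 0.33 in PP and 0.50 ± 0.33 in LP (log2 fold change of RPKM + 1 ± SE, the scale used throughout). The difference between these differences was 0.90 ± 0.47, which did not pass the test (limma adjusted p = 0.69).

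The inducible Hspa1a (chr17:34969359-34972156) was at 36.3 and 39.8 RPKM in wild-type PP, beside 46.1 and 54.4 RPKM in the PP pair labelled knockout. In LP it was at 10.7 and 17.8 RPKM in the wild-type libraries and at 168 and 40.8 RPKM in those labelled knockout. All 4 libraries labelled knockout lay above all 4 wild-type libraries, by a gap between 40.8 and 39.8 RPKM. Hspa1a was the only one of the 10 genes with such a split, which 1.66% of all genes showed, and none had the opposite one (1.24% of all genes). After median-of-ratios rescaling of the libraries the Hspa1a groups overlapped, and the difference in PP turned from 0.39 to -0.18. The average genotype difference of Hspa1a was 1.45 ± 0.64 (limma adjusted p = 0.73), and 0.83 without the first LP library labelled knockout.

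Hspa1b, the neighbouring copy of the inducible HSP70 gene (chr17:34956429-34959238), was far lower. It was at 0.29 and 0.38 RPKM in wild-type PP, 1.77 and 0.86 in PP labelled knockout, 5.34 and 7.28 in LP of wild-type mice and 10.2 and 0.77 RPKM in LP labelled knockout. The ratio of Hspa1a to Hspa1b therefore ran from 2.01 in wild-type LP to 124 in wild-type PP. The split between this pair is uncertain: 66.3% of 50-base windows of the Hspa1a transcript also occur in transcripts of other genes, mostly Hspa1b, and 62.3% of those of Hspa1b occur in Hspa1a. The sources used here do not give how shared reads were assigned. The share of such windows was 74.8% for Hspa8, 58.5% for Hsp90aa1, 44.8% for Hspe1 and for Hspd1 and 28.8% for Dnaja1, mostly with pseudogenes, and it was 4.49% for Hsp90ab1, 0.441% for Dnajb1 and 0 for Hsph1.

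**Figure D1:**
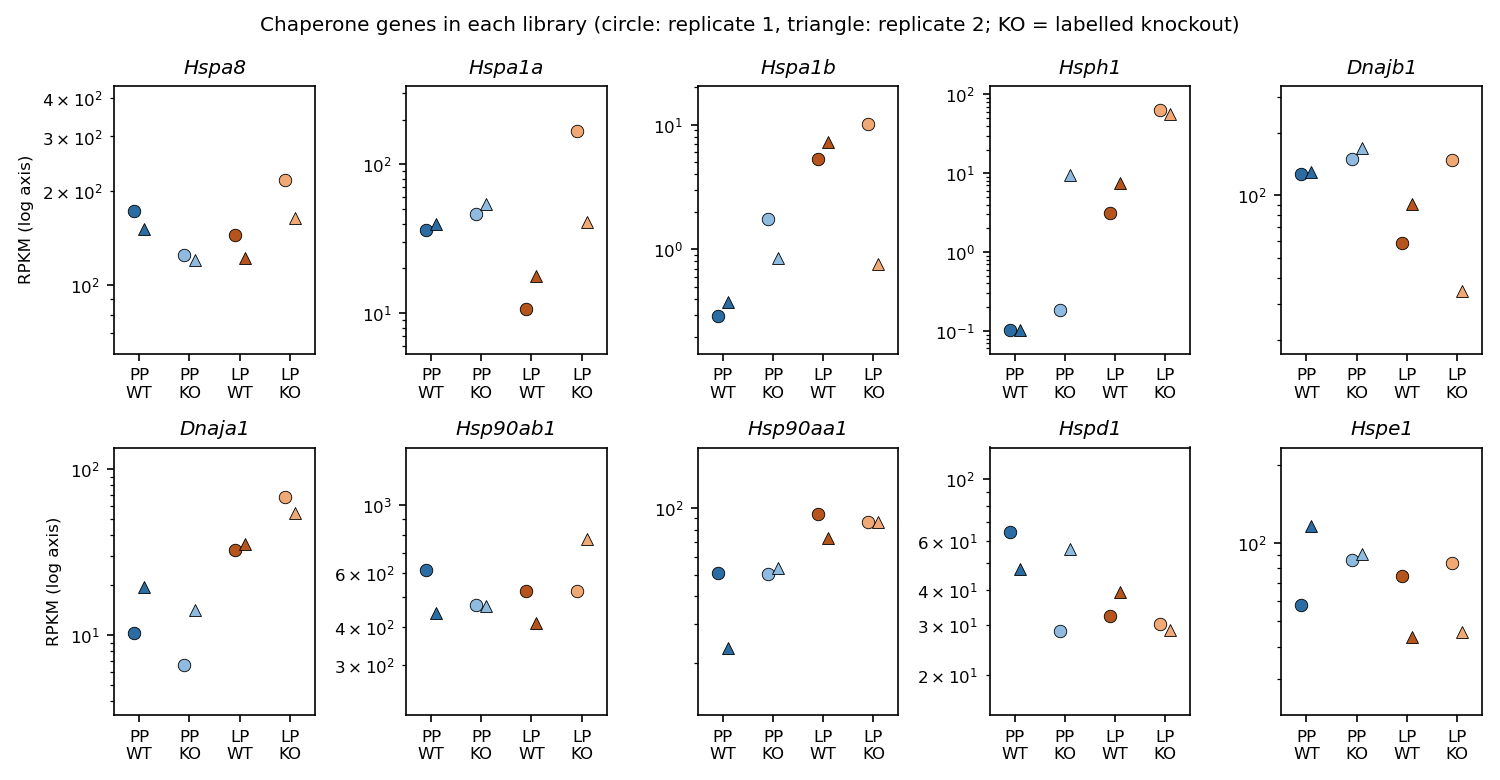
Level of each chaperone gene in RPKM (log axis, a separate range for each gene) in the 8 libraries. Circles are replicate 1 and triangles replicate 2, and KO stands for the knockout label. Dnaja1 is higher in every LP library than in any PP library and Hsph1 is lowest in 3 PP libraries, while Hspa1a and Dnajb1 in LP labelled knockout are spread widely between the 2 libraries.

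Hsph1, the HSP110 exchange factor (chr5:149616843-149636498), had the widest range of the 10. It was at 0.10 RPKM in both wild-type PP libraries, at 0.19 and 9.41 RPKM in PP labelled knockout, at 3.12 and 7.50 RPKM in wild-type LP and at 64.0 and 56.3 RPKM in LP labelled knockout. In PP, 3 libraries were near the detection limit, with about 16.5 to 29.7 reads by an estimate from the smallest steps of the values, and the second PP library labelled knockout overlapped the LP range. The ratio of Hspa8 to Hsph1 ran from 1668 in a wild-type PP library to 2.90 in an LP library labelled knockout. The LP against PP difference averaged over genotypes was 3.27 ± 1.03 (95% interval 0.99 to 5.55), which did not pass the test over all genes (limma adjusted p = 0.11). With low values in PP it depended on the pseudocount and was 1.95 with 5 and 4.90 with 0.1 added to the RPKM. Within the libraries labelled knockout it was 4.12 ± 1.31 (limma adjusted p = 0.21), and the average genotype difference was 2.52 ± 1.03 (limma adjusted p = 0.73).

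Of the J-domain proteins, Dnajb1, the inducible HSP40 (chr8:83608175-83612653), was at 127 and 130 RPKM in wild-type PP, beside 151 and 169 RPKM in the PP pair labelled knockout. In LP it was at 59.1 and 90.4 RPKM in the wild-type libraries and at 148 and 34.4 RPKM in those labelled knockout. Of the LP libraries, 3 lay below every PP library, and the first LP library labelled knockout lay within the PP range. The average tissue difference was -0.97 ± 0.46 (limma adjusted p = 0.28), and it was -0.53 without the second LP library labelled knockout and -1.36 without the first.

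Dnaja1, a J-domain protein with a farnesylated end (chr4:40722468-40734965), lay the other way. It was at 10.3 and 19.5 RPKM in wild-type PP, 6.57 and 14.2 in PP labelled knockout, 32.6 and 35.3 in LP of wild-type mice and 67.7 and 54.6 RPKM in LP labelled knockout. Every LP library lay above every PP library. The average tissue difference was 1.86 ± 0.61 (95% interval 0.51 to 3.21, limma adjusted p = 0.13), and it was 2.53 ± 0.72 in the libraries labelled knockout (limma adjusted p = 0.16). The ratio of Dnajb1 to Dnaja1 was 6.64 to 23.0 in PP and 0.63 to 2.56 in LP, without overlap.

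Hsp90ab1, the constitutive cytosolic HSP90 (chr17:45567778-45573261), was the most abundant of the 10 in 8 of 8 libraries and took 37.4% to 60.2% of their summed RPKM. It was at 615 and 442 RPKM in wild-type PP, 473 and 466 in PP labelled knockout, 525 and 410 in LP of wild-type mice and 525 and 774 RPKM in LP labelled knockout. Over all 8 libraries it overlapped by tissue and by genotype. In the libraries labelled knockout alone, both LP values of Hsp90ab1 exceeded both PP values, as for 17.5% of all genes. Its average tissue difference of 0.14 ± 0.23 had a 95% interval of -0.38 to 0.65.

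Hsp90aa1, the inducible HSP90 (chr12:110691036-110696395), was at 50.9 and 23.4 RPKM in wild-type PP, 50.2 and 53.6 in PP labelled knockout, 93.7 and 73.4 in LP of wild-type mice and 86.4 RPKM in both LP libraries labelled knockout. As for Dnaja1, the lowest LP value exceeded the highest PP value. These were the only 2 of the 10 genes with that split, which 6.54% of all genes showed, while none lay lower in all LP libraries (7.05% of all genes). The average tissue difference of Hsp90aa1 was 0.98 ± 0.42 (95% interval 0.05 to 1.92, limma adjusted p = 0.24). The ratio of Hsp90ab1 to Hsp90aa1 was 8.69 to 18.9 in PP and 5.59 to 8.97 in LP, with a slight overlap.

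**Figure D2:**
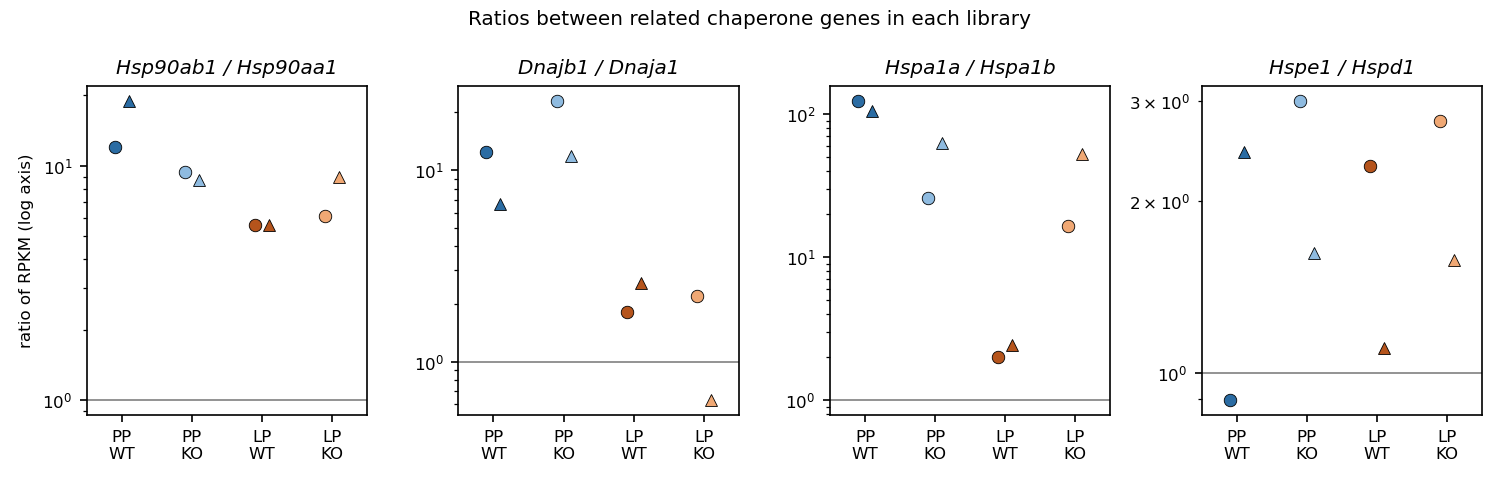
Ratio of RPKM between related chaperone genes in each of the 8 libraries (log axis, horizontal line at 1). Circles are replicate 1, triangles replicate 2, and KO stands for the knockout label. The ratio of Dnajb1 to Dnaja1 is 6.64 or more in the PP libraries and 2.56 or less in the LP libraries.

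The chaperonin pair, Hspd1 (chr1:55077833-55088243) and Hspe1 (chr1:55088148-55091317), showed no such split. Hspd1 was at 64.6 and 47.7 RPKM in wild-type PP, 28.8 and 56.1 in PP labelled knockout, 32.4 and 39.6 in LP of wild-type mice and 30.4 and 28.8 RPKM in LP labelled knockout. Hspe1 was at 57.8 and 116 RPKM in wild-type PP, 86.3 and 91.1 in PP labelled knockout, 74.7 and 43.7 in LP of wild-type mice and 84.1 and 45.4 RPKM in LP labelled knockout. Taken over all libraries, both genes overlapped between tissues and between genotypes. Some single pairs of groups did not overlap, as counted below. The ratio of Hspe1 to Hspd1, which share the promoter letters shown above, varied from 0.90 to 3.0 and differed between libraries of 1 group, being 0.90 and 2.44 in wild-type PP. The average tissue differences were -0.52 ± 0.47 for Hspd1 and -0.51 ± 0.42 for Hspe1 (limma adjusted p = 0.60 and 0.55).

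By level per length, Hsp90ab1 was followed by Hspa8, which was in place 2 in 6 libraries and place 3 in the other 2. Hspa1b took place 9 or 10 in all 8. Between these ends the order changed from library to library: Dnajb1 stood anywhere from place 2 to 8 and Hsph1 from place 4 to 10. The neighbours Hsp90aa1, Hspe1, Hspd1 and Hspa1a had overlapping ranges over the 8 libraries. Together the 10 genes gave 847 to 1402 RPKM, or 0.149% to 0.264% of all RPKM in a library.

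Counts of genes whose groups of 2 libraries did not overlap are given beside the share over all genes. For genotype in PP, 4 of the 10 were higher in both libraries labelled knockout (Hspa1a, Hspa1b, Hsph1, Dnajb1, against 22.7% of all genes) and 1 was lower (Hspa8, against 14.8%). For genotype in LP, 4 were higher (Hspa1a, Hspa8, Hsph1, Dnaja1, against 15.3%) and 1 lower (Hspd1, against 20.3% of all genes). For tissue in wild-type, 4 were higher in LP (Hspa1b, Hsp90aa1, Hsph1, Dnaja1, against 26.0%) and 4 lower (Hspa1a, Hspa8, Dnajb1, Hspd1, against 21.4%). For tissue in the libraries labelled knockout, 5 were higher in LP (Hspa8, Hsp90aa1, Hsp90ab1, Hsph1, Dnaja1, against 17.5%) and 2 lower (Dnajb1, Hspe1, against 28.1%).

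In no comparison did limma call any of the 10 genes at an adjusted p under 0.05. The share of all 10541 genes called was 0.36% for genotype in PP, 0.0285% for genotype in LP, 2.13% for tissue in wild-type, 2.0% for tissue in the libraries labelled knockout, 0.0285% for the difference of genotype effects between tissues, 0.00949% for the average genotype difference and 4.33% for the average tissue difference. At an unadjusted limma p under 0.05 there were 2 of the 10 for genotype in LP (Hspa1a and Hsph1, against 5.27% of all genes), 2 for tissue in the libraries labelled knockout (Hsph1 and Dnaja1, against 14.7%), 2 for the average genotype difference (Hspa1a and Hsph1, against 6.81%) and 3 for the average tissue difference (Hsph1, Dnaja1 and Hsp90aa1, against 19.4%). The other 3 comparisons had none. The median of the 10 was 0.15 for the average tissue difference and 0.15 for the average genotype difference, beside -0.10 and 0.09 over all genes. It was 0.67 for tissue in the libraries labelled knockout, beside -0.29 over all genes, and -0.22 for tissue in wild-type, beside 0.09. For genotype it was 0.21 in PP, beside 0.16, and 0.28 in LP, beside -0.06. The median difference of genotype effects was 0.40, beside -0.39. Comparisons that share libraries, such as genotype in LP and tissue in the libraries labelled knockout, are not independent of each other. Standard errors of the 10 ran from 0.29 to 1.31 in comparisons of 2 against 2 libraries. Genotype differences of the size of Hspa8's were thus not detectable in any of the 10.

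**Figure D3:**
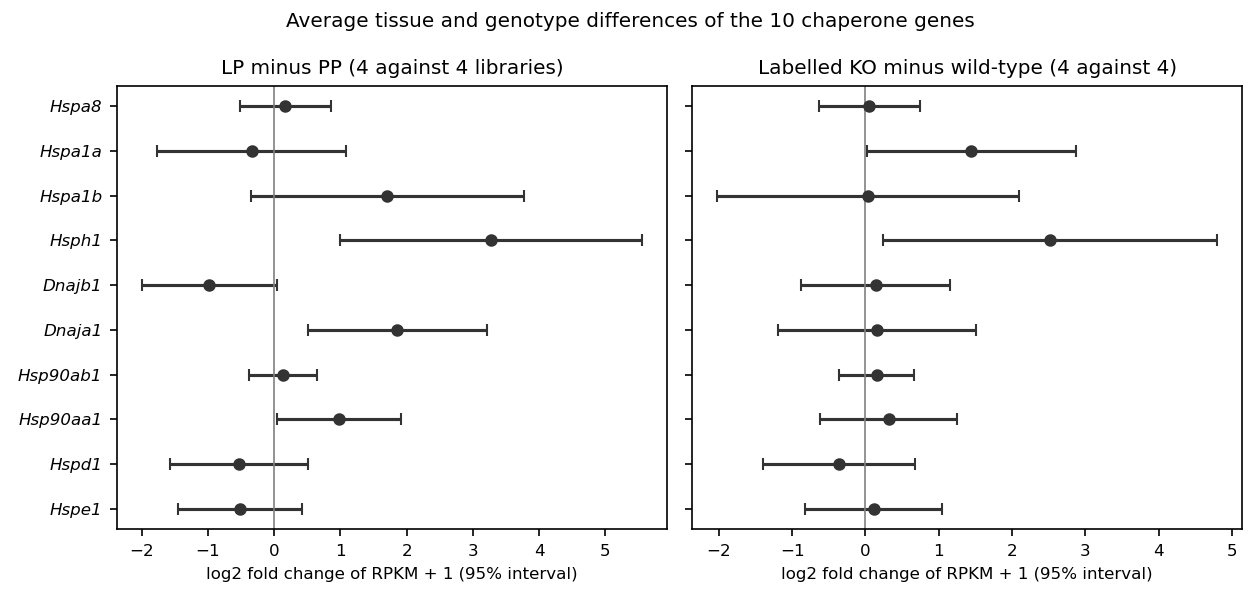
Average tissue difference (LP minus PP, left) and average genotype difference (labelled knockout minus wild-type, right) of the 10 genes, as log2 fold change of RPKM + 1 with its 95% interval from limma, 4 against 4 libraries. For tissue, the unadjusted intervals of Hsph1, Dnaja1 and Hsp90aa1 lie above 0, and no gene passed after adjustment over all genes.

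A single library held many of the highest values. The first LP library labelled knockout was the maximum for 5 of the 10 genes (Hspa1a, Hspa1b, Hspa8, Hsph1, Dnaja1), while 8.72% of all genes had their maximum there. Of the 10 genes, 8 were higher in it than in the second library of its group, beside 46.4% of all genes. The exceptions were Hsp90ab1, and Hsp90aa1 at equal levels. Without that library the tissue difference of Hspa1a in the libraries labelled knockout turned from 0.72 to -0.29 and that of Hspa1b from 0.97 to -0.36.

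The genes whose levels followed the 10 most closely over the 8 libraries, by Pearson's r of log2(RPKM + 1) with the mean z-score of the 10 among 7698 genes, were the immunoglobulin variable genes Ighv1-9 (r = 0.92), Ighv1-72 (0.90), Igkv8-21 (0.90), Igkv3-10 (0.90) and Ighv1-55 (0.90). Each was at 267 to 5133 RPKM in the first LP library labelled knockout and at most 8.74 RPKM in the other 7. These correlations therefore rest on 1 library and are given as a description. The part of what sets that library apart in the chaperone values was not tested.

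The rest of the chaperone network was read from 9 lists of 86 genes, of which 73 were tested. For the average tissue difference 3 of the 73 were higher in LP and none lower (4.11%, close to the 4.33% of all genes), and the median was 0.12. Of the 3, 2 were chaperones of the endoplasmic reticulum, a list with 2 of 10 tested genes higher and none lower. Hspa5 (BiP), the HSP70 of that compartment, was at 326 to 467 RPKM in PP and 1187 to 2032 RPKM in LP, a difference of 2.04 ± 0.21 (limma adjusted p = 0.000415). Dnajb9, its J-domain partner, was at 12.2 to 22.4 RPKM in PP and 71.2 to 123 RPKM in LP, a difference of 2.52 ± 0.47 (limma adjusted p = 0.014). The Dnajb9 call was lost without the first wild-type LP library or without the first LP library labelled knockout (limma adjusted p up to 0.069), and the Hspa5 call without the mean-variance trend (limma adjusted p = 0.082). Of the B and plasma cell genes, whose summed level is given above, 3 of 9 tested were higher and 1 lower in LP. Their part in this difference was not tested.

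The third was Cryaa, a small heat shock protein best known from the lens, and the only one of 8 in its list that was tested. It was at 2.49 to 57.1 RPKM in PP and at 650 to 798 RPKM in LP, a difference of 5.22 ± 0.72 (limma adjusted p = 0.00247). Hspb1, Hspb3, Hspb7 and Hspb8, from the same list, were listed at 0 in every library.

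Among 12 HSP90 co-chaperones, Unc45a, which serves HSP90 in myosin folding, was the only one called. It was at 0.21 and 0.23 RPKM in wild-type PP and between 35.9 and 77.3 RPKM in the other 6 libraries. The difference was 5.81 ± 0.69 for tissue in wild-type (limma adjusted p = 0.012) and 5.05 ± 0.69 for genotype in PP (limma adjusted p = 0.045). The genotype call was lost in 12 of 17 alternatives, among them the replicate block, a fit of the PP libraries alone and the loss of any 1 library, with a highest limma adjusted p of 0.36. The tissue call was lost in 3, without either of the wild-type LP libraries and in a fit of the groups compared alone. The kinase co-chaperone Cdc37 was the most abundant of that list, at 82.9 to 176 RPKM.

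No gene was called for the average tissue difference among 3 tested genes of the list of heat shock factors and their regulator, 4 other HSP70 genes, 13 other J-domain proteins, 7 exchange factors and HSP70 partners, 14 subunits of TRiC and prefoldin and 9 other mitochondrial chaperones and proteases. At an unadjusted limma p under 0.05 these lists held 1, 2, 2, 0, 0 and 2 genes, beside 19.4% of all genes. Hsf1, the transcription factor of the heat shock response, was named after its values were seen. It was at 82.9 and 178 RPKM in wild-type PP, 15.9 and 40.0 in PP labelled knockout, 11.6 and 38.9 in LP of wild-type mice and 58.5 and 47.9 RPKM in LP labelled knockout. Wild-type PP was thus the highest group. The difference for genotype in PP was -2.22 ± 0.80 (limma adjusted p = 0.33). Hsbp1, a binding partner of HSF1, was at 69.8 to 172 RPKM in PP and 31.0 to 72.2 RPKM in LP, with an average tissue difference of -1.36 (limma adjusted p = 0.14).

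The exchange factor Bag1 was at 74.8 to 164 RPKM in PP and 60.4 to 131 RPKM in LP. Dnaja4, a relative of Dnaja1, was at 0.15 and 0.22 RPKM in wild-type PP, beside 6.02 to 42.6 RPKM in the other 6 libraries, with a genotype difference in PP of 4.36 that did not pass (limma adjusted p = 0.20). The mitochondrial protease subunit Clpp was at 45.7 to 185 RPKM in PP and 1.10 to 24.1 RPKM in LP, an average tissue difference of -2.94 ± 0.78 (limma adjusted p = 0.065). Hspa9, the mitochondrial HSP70 that works with Hspd1 and Hspe1, was at 24.9 to 132 RPKM without a split by tissue.

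**Figure D4:**
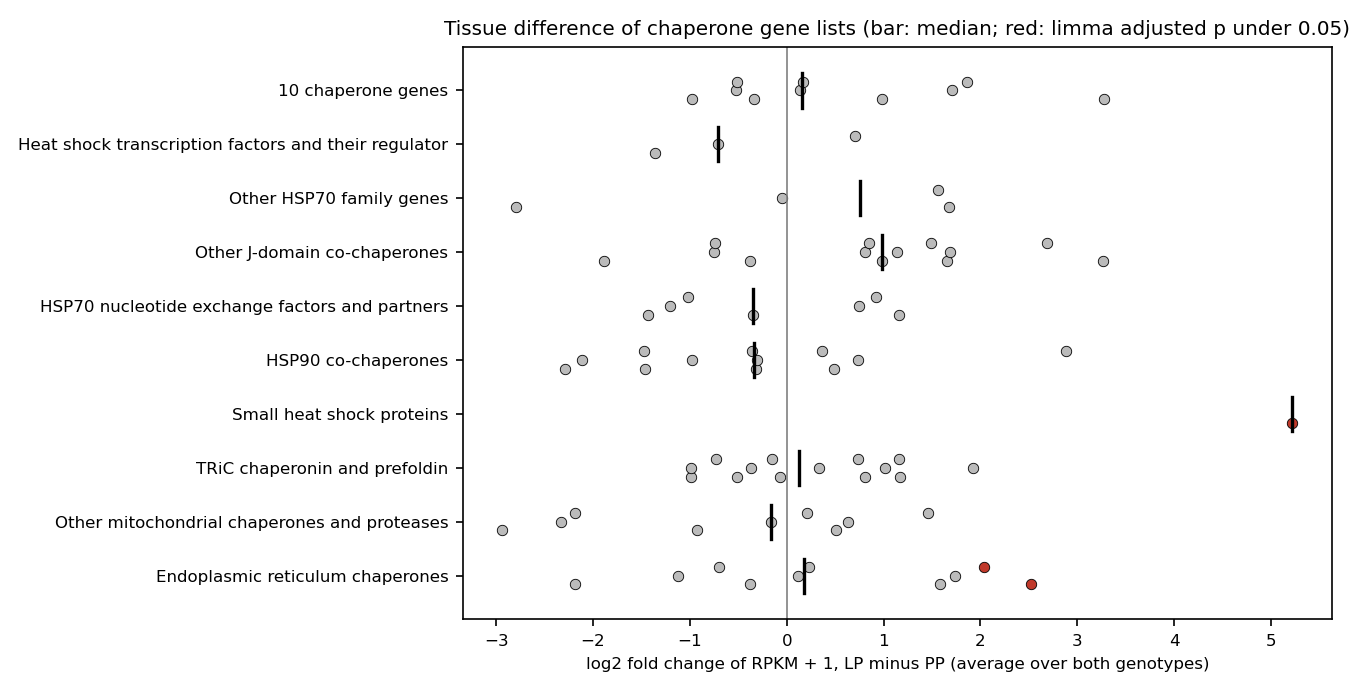
Average tissue difference (LP minus PP, log2 fold change of RPKM + 1) of each tested gene in the 10 chaperone genes and the 9 lists of related genes. Points are genes, vertical bars are medians and red marks a limma adjusted p under 0.05, which Cryaa, Hspa5 and Dnajb9 reached.

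Immediate early genes respond quickly to stimulation and to cell handling. Of 13 such genes limma called 5 higher and 1 lower in LP, beside 4.33% of all genes called, and the other 7 did not pass. The median of the 13 was 1.65, and their summed level was 7547 to 8323 RPKM in PP and 13112 to 16438 RPKM in LP. Atf3 rose by 6.03 and Junb by 1.75 (limma adjusted p = 5.73e-05 and 0.000113), whereas Jun, named as the 1 lower gene after its values were seen, fell by 1.72 (limma adjusted p = 0.011). Their part in the tissue values of Hsph1, Dnaja1 and Hsp90aa1 was not tested.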

How the data were processed

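RNA-seq values of 8 libraries were used. The deposited table holds log2(RPKM + 1) per gene, with 0.0001 in place of 0. Subread, featureCounts and mm10 are named in the submitters' processing notes; the sources used here give neither versions nor the assignment of reads shared between genes. Depth, estimated from the smallest steps of low values of 165 genes, was 37100000 to 43400000 assigned reads per library. Libraries were grouped by tissue and genotype as labelled; the driver of the Cre is not reported here.

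Genes at 1 RPKM or more in at least 2 libraries (10541) were fitted with limma 3.58.1 (R 4.3.3, eBayes with a mean-variance trend) on log2(RPKM + 1). A model of the 4 group means gave 5 comparisons, and an additive model the average genotype and tissue differences. All two-sided p-values were adjusted by Benjamini-Hochberg over all genes fitted, with calls at 0.05. The script was tested on simulated data. Alternatives were other pseudocounts, filters and scalings, no trend, a replicate block and leaving out each library.

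The 10 genes, the pathway lists and the markers were chosen with earlier results of these data known. Named genes of a list are those called (at most 4, by p), or the one with the smallest unadjusted p, and the most abundant. RefSeq (GRCm38.p6) gave promoters; windows of 50 bases were compared across GENCODE transcripts.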

Additional observations from a re-analysis of the deposited data

How the results depend on the processing

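None of the 10 genes was called in any of 116 alternative counts (each comparison under each setting), with a replicate block or without. The smallest limma adjusted p among them was 0.084 (Dnaja1, average tissue difference, without the second wild-type PP library). Of 1160 alternative values of their fold changes, 1109 kept the sign and 51 reversed, and 44 of 70 fold changes never reversed. Differences between replicate 1 and replicate 2 were almost uncorrelated between groups, with r between -0.0214 and 0.0103 over all genes. This gave no sign of pairing by replicate number, but with the spread between libraries it cannot exclude pairing. With the replicate block 0 of the 10 genes were called in each comparison, and the number of all genes called fell from 38 to 16 (genotype in PP), 224 to 99 and 211 to 74 (tissue in wild-type and in the libraries labelled knockout).

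The limits are the 2 libraries per group and the scaling. Median-of-ratios rescaling moved the median of all genes by -0.23 for genotype in PP, 0.30 for tissue in the libraries labelled knockout, 0.57 for the difference of genotype effects, and by 0.11 to 0.12 in size for genotype in LP, tissue in wild-type and average genotype. The median of the 10 genes turned from 0.21 to -0.36 for genotype in PP and from 0.15 to -0.0094 for average genotype. Values that reversed with it were for genotype in PP Hspa1a -0.18, Dnajb1 -0.26, Hspe1 -0.46, and for genotype in LP Dnajb1 0.19, and for tissue in the libraries labelled knockout Hspd1 0.019, and for the difference of genotype effects Hsp90aa1 0.27, Dnajb1 0.46, and for the average genotype difference Hspa8 -0.12, Hsp90ab1 -0.025, Dnajb1 -0.037, Hspe1 -0.066. With totals that leave out immunoglobulin and mitochondrial genes, Hsp90ab1 reversed for tissue in wild-type (0.0096) and Hspe1 for the difference of genotype effects (-0.13), and the median of all genes moved by 0.13 for tissue in wild-type. With a pseudocount of 5, Hspa1b reversed for the average genotype difference (-0.013).

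Leaving out each library in turn reversed the fold changes given with their range. For genotype in PP these were Hsp90ab1 (-0.39 to 0.087), Hspe1 (-0.39 to 0.61), Hspd1 (-0.93 to 0.014). For genotype in LP these were Hspa1b (-2.03 to 0.63), Hsp90aa1 (-0.12 to 0.23), Dnajb1 (-1.07 to 1.01), Hspe1 (-0.33 to 0.55). For tissue in wild-type these were Hsp90ab1 (-0.40 to 0.071). For tissue in the libraries labelled knockout these were Hspa1a (-0.29 to 1.72), Hspa1b (-0.36 to 2.31), Hspd1 (-0.90 to 0.041). For the difference of genotype effects these were Hsp90aa1 (-1.06 to 0.030), Dnajb1 (-1.38 to 0.70), Hspe1 (-0.50 to 0.50), Hspd1 (-0.28 to 0.66). For the average genotype difference these were Hspa1b (-0.35 to 0.71), Hspa8 (-0.12 to 0.18), Hsp90ab1 (-0.020 to 0.31), Dnajb1 (-0.24 to 0.59), Dnaja1 (-0.035 to 0.49), Hspe1 (-0.088 to 0.31). For the average tissue difference these were Hspa1a (-0.95 to 0.0085), Hspa8 (-0.00045 to 0.31), Hsp90ab1 (-0.036 to 0.29). Over all alternatives, and not only those without a library, some averages moved by over 1.5 times without reversing. Among these, the tissue difference ran from 0.83 to 2.52 for Hspa1b and -0.71 to -0.31 for Hspe1. It ran from 1.95 to 4.90 for Hsph1, with pseudocounts of 5 and 0.1 at the ends, and -1.36 to -0.53 for Dnajb1. The genotype difference ran from 0.83 to 1.71 for Hspa1a, 0.046 to 0.48 for Hsp90aa1 and -0.53 to -0.15 for Hspd1. Over all genes, calls ranged from 0 to 138 for genotype in PP, 0 to 56 for genotype in LP, 0 to 257 and 0 to 230 for tissue in wild-type and in the libraries labelled knockout, 0 to 36 for the difference of genotype effects, 1 to 4 for average genotype and 243 to 560 for average tissue. For the genes of the other lists, to which the same settings were applied after seeing the data, Cryaa and Atf3 were called in 16 of 16 alternatives for tissue, Junb and Hspa5 in 15, Dnajb9 and Jun in 14. Hspa5 was called in 11 of 17 for tissue in wild-type and in 8 of 17 in the libraries labelled knockout. In the latter, 9 settings ended the call. They were no filter, no trend, the replicate block, a fit of the groups compared alone and the loss of certain single libraries. Clpp passed in 2 of 16. Causes were not tested.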
